A study of Homo sapiens with 12 samples.

Results

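The genes CPA4, PTX3, CSF3, DAW1, AFAP1L2 and ANGPTL4, were followed over a doxycycline (Dox) time course in MCF10A cells. These 6 of the 60483 gene rows were chosen by their measured values, because their RNA was much lower at 72 h than at 24 h in Dox. The comparison of 72 h with 24 h, and every other comparison that uses the 24 h or 72 h libraries, is therefore given for them as a description with no test. The comparison of 48 h with No Dox sets 2 other groups against each other and was tested. Its p-values still draw on the spread within all 12 libraries, and each of the 6 genes kept its side of the threshold when only the libraries of these 2 groups were fitted. A peak at 24 h was the picture for 5 of the 6 genes only. CSF3 had its highest level without Dox, so the 6 genes are described here by how they were picked.

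MCF10A is a line of human breast epithelium that is immortal but not tumour-forming. The cells carried a Dox-inducible TAZ-4SA, an activated form of the co-activator TAZ that lacks serines through which the Hippo kinases restrain it. The 4 groups of 3 libraries were No Dox and 24 h, 48 h and 72 h in 0.05 µg/mL Dox, and all groups carried the transgene and grew in medium with horse serum, EGF, hydrocortisone, cholera toxin and insulin. The labels give the No Dox group no time of its own and hold no Dox-treated cells without TAZ-4SA. The drug, the time in culture and TAZ-4SA therefore cannot be told apart. Whether replicates were separate cultures is not in the labels. The p-values may thus rest on technical spread alone.

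The 6 genes have unrelated functions. CPA4 is a secreted metallocarboxypeptidase of the M14 family, which removes hydrophobic residues from the C-terminus of peptides. PTX3 is a long pentraxin, a soluble pattern recognition protein that binds complement C1q and factor H and the growth factor FGF2. CSF3 encodes G-CSF, the cytokine that drives neutrophil production, and inflammatory signals acting through NF-kB and C/EBP factors are known to switch it on. ANGPTL4 is a secreted inhibitor of lipoprotein lipase and a familiar target of PPAR and hypoxia signalling. AFAP1L2 is an actin-associated adaptor that binds Src and the p85 subunit of PI3K. DAW1 is a WD repeat protein that helps deliver axonemal dyneins to motile cilia. TAZ itself binds no DNA and reaches its target genes mainly through TEAD factors, often next to AP-1.

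The rows lie on 6 chromosomes of GRCh38, and each counts the exons of the whole gene. CPA4 (ENSG00000128510) spans 130293134 to 130324180 on the plus strand of chromosome 7. PTX3 (ENSG00000163661) spans 157436850 to 157443633 on the plus strand of chromosome 3. CSF3 (ENSG00000108342) spans 40015361 to 40017813 on the plus strand of chromosome 17. DAW1 (ENSG00000123977) spans 227871054 to 227924344 on the plus strand of chromosome 2. AFAP1L2 (ENSG00000169129) spans 114294824 to 114404756 on the minus strand of chromosome 10. ANGPTL4 (ENSG00000167772) spans 8363289 to 8374370 on the plus strand of chromosome 19. All 6 are protein-coding, and RSEM divided none of their reads between genes (SD from shared reads 0 in every library).

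The RefSeq promoter table (GRCh38.p14) had an entry for 4 of the 6 genes, CPA4, PTX3, AFAP1L2 and ANGPTL4. The bases upstream of the start are shown for 3 of them, because all 3 genes were highest at 24 h and their promoters can be set side by side. Capitals mark the motifs found, and all 3 sequences are on the plus strand.
CPA4 (chr7:130292911-130293133): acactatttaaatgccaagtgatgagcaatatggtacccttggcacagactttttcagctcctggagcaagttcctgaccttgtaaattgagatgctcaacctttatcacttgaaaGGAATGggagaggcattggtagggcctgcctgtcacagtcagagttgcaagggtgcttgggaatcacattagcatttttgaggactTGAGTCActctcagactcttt
PTX3 (chr3:157436600-157436849): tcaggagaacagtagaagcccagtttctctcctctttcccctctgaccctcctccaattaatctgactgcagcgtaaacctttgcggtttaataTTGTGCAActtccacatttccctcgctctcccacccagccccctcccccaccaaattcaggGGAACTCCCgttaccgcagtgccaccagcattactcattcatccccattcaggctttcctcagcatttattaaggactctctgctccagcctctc
ANGPTL4 (chr19:8363905-8364154): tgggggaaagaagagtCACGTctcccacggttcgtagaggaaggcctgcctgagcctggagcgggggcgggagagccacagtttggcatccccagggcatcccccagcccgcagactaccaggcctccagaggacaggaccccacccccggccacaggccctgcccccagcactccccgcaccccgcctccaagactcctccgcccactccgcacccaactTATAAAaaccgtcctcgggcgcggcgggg
The CPA4 window is cut at 223 bases, since the annotation places the first exon of another CPA4 transcript after it. The AFAP1L2 window lies within first exons of other AFAP1L2 transcripts and is not shown. The ANGPTL4 window lies inside the annotated span of the gene, outside its exons.

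Both strands of the 250 upstream bases were searched for the TEAD motif GGAATG, the AP-1 motif TGANTCA, the NF-kB motif GGGNNTTCC, the C/EBP motif TTGCNNAA, the hypoxia element ACGTG, the CRE half-site TGACG and the TATA box TATAAA. CPA4 held GGAATG at -134 to -129 from the start and TGAGTCA at -48 to -42. A further AP-1 match at -15 to -9 lay in the part that is also a first exon. So did a TATA box at -28 to -23, with an overlapping match on the opposite strand. PTX3 held GGAACTCCC, the NF-kB motif on the opposite strand, at -95 to -87, and TTGTGCAA, the C/EBP motif on the opposite strand, at -156 to -149. ANGPTL4 held CACGT, the hypoxia letters on the opposite strand, at -234 to -230 and TATAAA at -29 to -24. No motif was found in the AFAP1L2 window. Among 35116 promoter windows of the same length, 11.9% held the TEAD letters, 6.57% the AP-1 letters, 5.78% the NF-kB letters, 9.05% the C/EBP letters, 18.5% ACGTG, 21.2% TGACG and 10.7% TATAAA. The G and C content was 44.4% in CPA4, 51.6% in PTX3, 68.8% in ANGPTL4 and 81.6% in AFAP1L2, against a median of 58% over all windows.

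Levels are given in CPM, expected counts scaled to a common library size with TMM factors, as mean ± SD with n = 3 per group. Each library held 15382564 to 26570132 expected counts. The induced gene WWTR1, which encodes TAZ, stood at 71.7 ± 2.88 CPM in the No Dox libraries. At 24, 48 and 72 h it had 887 ± 68.1, 844 ± 73.6 and 994 ± 59.3 CPM. In the deposited TPM, which are per transcript length, it stood at 26.6 ± 2.88 without Dox. The TPM in Dox were 1000 ± 145, 994 ± 152 and 1130 ± 127, a larger rise than in CPM. The row does not tell the transgene from the cells' own WWTR1. By CPM the level of WWTR1 at 72 h was thus 112% of the level at 24 h, while the 6 genes stood at 3.84% to 29.4% of theirs.

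**Figure D1:**
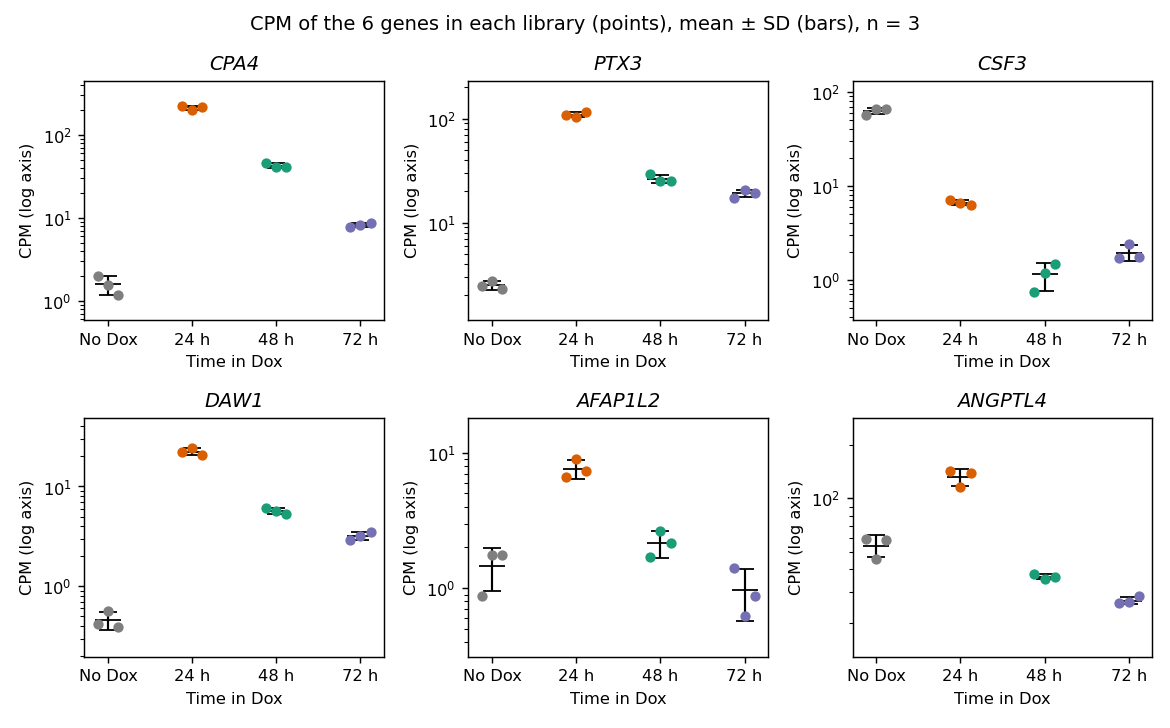
CPM (log axis) of the 6 genes in each of the 12 libraries, by time in Dox. Points are libraries, horizontal marks are group means and error bars are SD (n = 3). The 24 h libraries stand highest for CPA4, PTX3, DAW1, AFAP1L2 and ANGPTL4, and the No Dox libraries stand highest for CSF3.

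CPA4, the carboxypeptidase, had the widest range. Its libraries were at 2.03, 1.58 and 1.18 CPM without Dox, at 224, 202 and 221 CPM at 24 h, at 46, 40.7 and 41.8 CPM at 48 h and at 7.77, 8.27 and 8.77 CPM at 72 h. No 2 groups overlapped. The mean thus went from 1.6 ± 0.423 CPM to 215 ± 12.1 CPM and back through 42.8 ± 2.76 CPM to 8.27 ± 0.499 CPM. The log2 fold change at 24 h against No Dox was 7.06 ± 0.11 (SE), a 133-fold difference of levels. Each later step took off a like amount, with log2 fold changes of -2.33 ± 0.07 from 24 to 48 h and -2.37 ± 0.09 from 48 to 72 h. At 72 h CPA4 was still 5.15-fold above No Dox (log2 fold change 2.36 ± 0.15). In the tested comparison, CPA4 rose 26.6-fold at 48 h against No Dox, with a log2 fold change of 4.73 ± 0.12 and an adjusted p of 1.14e-18 (edgeR).

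PTX3, the pentraxin, rose from a similar low level. It was at 2.44, 2.78 and 2.32 CPM without Dox, at 108, 103 and 115 CPM at 24 h, at 29.2, 25.2 and 25 CPM at 48 h and at 17.4, 20.5 and 19.5 CPM at 72 h. The groups did not overlap. Most of the descent lay before 48 h, since the log2 fold change was -2.04 ± 0.07 from 24 to 48 h and -0.47 ± 0.08 from 48 to 72 h. PTX3 kept 17.6% of its 24 h mean at 72 h, which was 7.65-fold above No Dox. At 48 h PTX3 rose 10.6-fold against No Dox (log2 fold change 3.41 ± 0.11, adjusted p = 1.31e-16, edgeR).

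DAW1, the dynein assembly factor, had a course close to that of PTX3 at a lower level. Its No Dox libraries held 9, 9 and 8 counts, or 0.415, 0.568 and 0.394 CPM. The libraries were at 22.2, 24.4 and 20.7 CPM at 24 h, at 6.06, 5.74 and 5.32 CPM at 48 h and at 2.93, 3.19 and 3.51 CPM at 72 h, again without overlap. The log2 fold change at 24 h against No Dox was 5.62 ± 0.17, and 14.3% of the 24 h mean was left at 72 h. At 48 h DAW1 rose 12.6-fold against No Dox (log2 fold change 3.65 ± 0.2, adjusted p = 7.82e-13, edgeR). The low No Dox counts limit the precision of these folds.

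AFAP1L2, the Src and PI3K adaptor, was low in every group. Its libraries were at 0.875, 1.77 and 1.77 CPM without Dox, at 6.6, 9.02 and 7.26 CPM at 24 h, at 1.69, 2.65 and 2.14 CPM at 48 h and at 1.42, 0.626 and 0.877 CPM at 72 h. The 24 h libraries stood apart from all others, and the 48 h and 72 h libraries each overlapped the No Dox libraries. The log2 fold change at 24 h against No Dox was 2.39 ± 0.26. At 48 h AFAP1L2 did not pass the test against No Dox. The log2 fold change was 0.59 ± 0.29 with a 95% interval of 0.01 to 1.16 and an adjusted p of 0.0799 (edgeR), so a 2-fold difference in levels is within the interval. Single libraries weighed on this value, which was 0.30 without No Dox replicate 1 (adjusted p = 0.381) and 0.39 without 48 h replicate 2 (adjusted p = 0.308).

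ANGPTL4, the lipase inhibitor, peaked from a high base and then went below it. The libraries were at 59.1, 45.5 and 58.6 CPM without Dox, at 142, 116 and 139 CPM at 24 h, at 37.8, 35.2 and 36.1 CPM at 48 h and at 25.8, 26.1 and 28.2 CPM at 72 h. All 48 h and 72 h libraries were below all No Dox libraries. The 24 h mean was 2.42-fold above No Dox by the fit (log2 fold change 1.27 ± 0.08), and the 72 h mean was 2.04-fold below No Dox (log2 fold change -1.03 ± 0.09). At 48 h ANGPTL4 was lower than without Dox at an adjusted p of 6.04e-06 (edgeR), with a log2 fold change of -0.59 ± 0.09 that stayed under the fold threshold of 1.

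CSF3, the cytokine, was the exception. It was at 57.5, 65.4 and 65.2 CPM without Dox, at 7.06, 6.52 and 6.29 CPM at 24 h, at 0.745, 1.17 and 1.49 CPM at 48 h and at 1.71, 2.38 and 1.75 CPM at 72 h. The No Dox libraries were the highest, and the 48 h libraries, with 15, 27 and 23 counts, were the lowest. CSF3 was already 9.42-fold below No Dox at 24 h (log2 fold change -3.24 ± 0.1), so the later difference is the end of a descent and not of a peak. Its 72 h libraries stood above its 48 h libraries (log2 fold change 0.77 ± 0.23), and no other of the 6 genes had a higher mean at 72 h than at 48 h. In the tested comparison CSF3 fell 56-fold at 48 h against No Dox (log2 fold change -5.81 ± 0.14, adjusted p = 4.76e-19, edgeR).

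**Figure D2:**
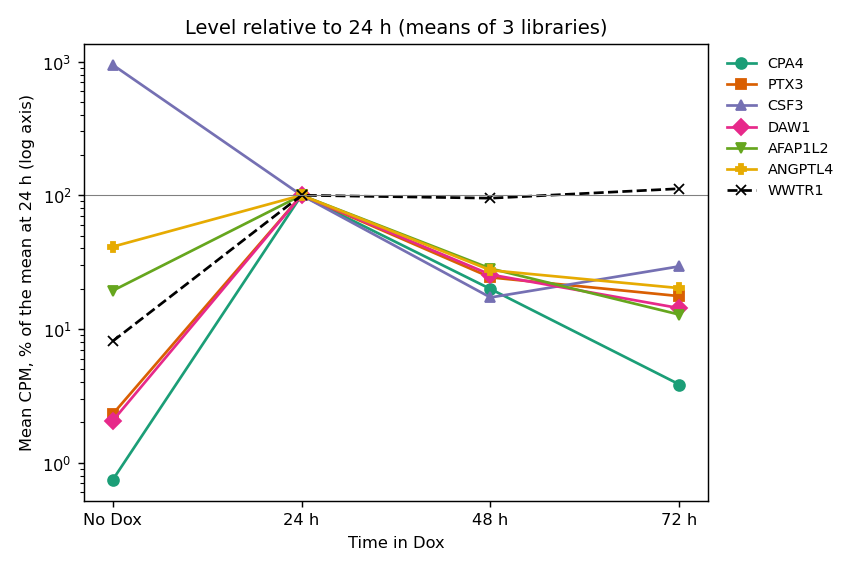
Mean CPM of the 6 genes and of WWTR1 as a percentage of each gene's mean at 24 h (log axis), by time in Dox (means of 3 libraries). All 6 genes lie between 17.2% and 28.3% at 48 h, while CPA4 goes on to 3.84% at 72 h and WWTR1 (dashed) stays at 95.1% and 112%.

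At 48 h the 6 genes held similar shares of their 24 h means, 19.9% for CPA4, 24.3% for PTX3, 17.2% for CSF3, 25.5% for DAW1, 28.3% for AFAP1L2 and 27.5% for ANGPTL4. They spread out afterwards. At 72 h the shares were 3.84% for CPA4, 12.8% for AFAP1L2, 14.3% for DAW1, 17.6% for PTX3, 20.2% for ANGPTL4 and 29.4% for CSF3. The log2 fold changes from 48 to 72 h ran from -2.37 for CPA4 through -1.13 ± 0.31 for AFAP1L2, -0.83 ± 0.14 for DAW1, -0.47 for PTX3 and -0.44 ± 0.1 for ANGPTL4 to 0.77 for CSF3. CPA4 and AFAP1L2 were thus the only members more than 2-fold lower at 72 h than at 48 h.

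Against No Dox the 6 genes ended in 3 different places at 72 h. CPA4, PTX3 and DAW1 were still above it, with log2 fold changes of 2.36 ± 0.15, 2.93 ± 0.12 and 2.83 ± 0.22. AFAP1L2 overlapped it (-0.55 ± 0.33). ANGPTL4 and CSF3 were below it (-1.03 ± 0.09 and -5.03 ± 0.12). The 3 comparisons share the No Dox libraries.

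**Figure D3:**
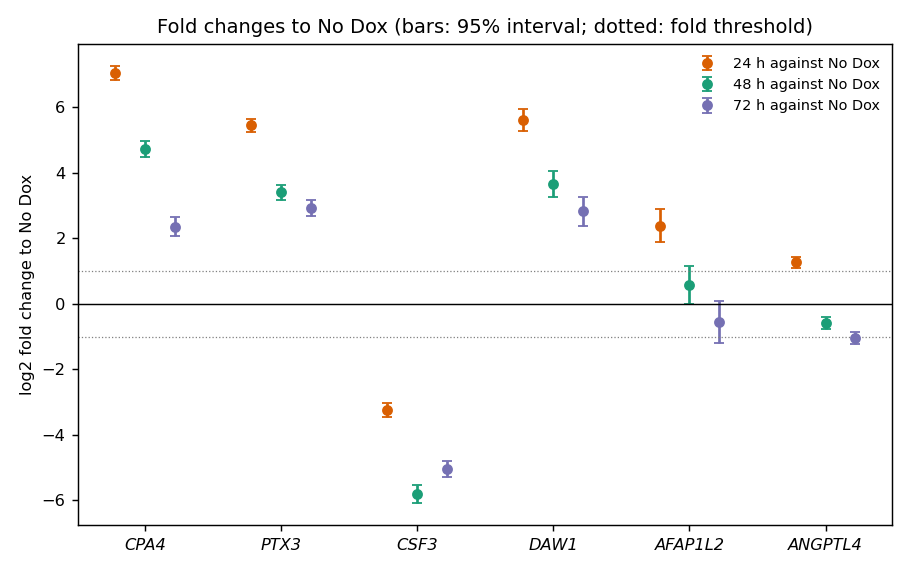
Log2 fold change to No Dox of the 6 genes at 24, 48 and 72 h, with 95% intervals from the edgeR fit and dotted lines at the fold threshold of 1 in either direction. CPA4, PTX3 and DAW1 stay above the upper line at all 3 times, CSF3 stays below the lower line, and AFAP1L2 and ANGPTL4 cross 0 on the way.

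Calls were made with edgeR and needed both a 2-fold difference in either direction and a p under 0.05 after Benjamini-Hochberg adjustment over all genes. In the 1 comparison tested for them, 48 h against No Dox, 3 of the 6 genes were called higher (CPA4, PTX3 and DAW1) and 1 lower (CSF3). Of all 14822 genes tested, 10.6% were called higher and 14.4% lower in that comparison. The median log2 fold change was 2 over the 6 genes and -0.01 over all genes. All 6 genes passed the filter on low counts. Of the 6 genes, 5 were known to be high at 24 h, among them CPA4, PTX3 and DAW1. The higher levels of these 3 at 48 h are not independent of how the time course runs.

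For the comparisons that share libraries with the choice of the genes, the background stands beside the values without a reading. The 6 genes are counted here by fold change alone, while the calls among all genes also needed an adjusted p under 0.05. The 2 kinds of count are therefore not on the same threshold. At 24 h against No Dox, 5 of the 6 genes were at least 2-fold higher and 1 was at least 2-fold lower, where 12% of all genes were called higher and 17.7% lower. At 72 h against No Dox, 3 genes were at least 2-fold higher and 2 lower, where 10.2% of all genes were called higher and 12.3% lower. All 6 genes were at least 2-fold lower at 48 h than at 24 h, where 1.44% of all genes were called lower and 3.08% higher. At 72 h against 48 h the same held for 2 genes, where 0.938% of all genes were called lower and 2.3% higher. In the comparison that picked them, 72 h against 24 h, 3.99% of all genes were called lower and 8.28% higher. The pattern of CPA4, PTX3, DAW1, AFAP1L2 and ANGPTL4, higher at 24 h than without Dox and lower at 72 h than at 24 h, was shared by 238 genes, or 1.61%. The pattern of CSF3, lower at 24 h than without Dox and lower again at 72 h, was shared by 82 genes, or 0.553%.

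The choice of the genes had no numeric threshold. Ranked by the log2 fold change from 24 to 72 h among all 14822 genes, CPA4 was 9th from the bottom (-4.7), AFAP1L2 was 29th (-2.94), DAW1 35th (-2.79), PTX3 54th (-2.51), ANGPTL4 70th (-2.3) and CSF3 171st (-1.8). Among the 10757 protein-coding genes with at least 5 CPM in their highest group, CPA4 was 2nd, AFAP1L2 7th, DAW1 10th, PTX3 15th, ANGPTL4 22nd and CSF3 52nd. Many genes with a larger drop were thus not among the 6.

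Levels of different genes were compared in the deposited TPM, which are per transcript length. Without Dox the order was CSF3 (64 ± 3.98 TPM), ANGPTL4 (42 ± 5.97), PTX3 (1.79 ± 0.175), CPA4 (1 ± 0.234), AFAP1L2 (0.497 ± 0.17) and DAW1 (0.437 ± 0.105), of which the last pair differed by less than their spread. At 24 h CPA4 stood first with 168 ± 1.91 TPM, followed by ANGPTL4 (106 ± 8.45), PTX3 (79.8 ± 3.63), DAW1 (16.5 ± 2.14), CSF3 (7.12 ± 0.496) and AFAP1L2 (2.76 ± 0.532). At 48 h CPA4 (32.5 ± 6.11) and ANGPTL4 (28.5 ± 0.759) lay within their spread, above PTX3 (19.7 ± 1.15), DAW1 (4.67 ± 0.479), CSF3 (1.4 ± 0.725) and AFAP1L2 (0.927 ± 0.293). At 72 h ANGPTL4 (21.7 ± 0.23) and PTX3 (14.4 ± 1.5) stood above CPA4 (6.09 ± 1.74), and DAW1 (2.64 ± 0.0513), CSF3 (2.08 ± 0.483) and AFAP1L2 (0.473 ± 0.155) followed. CPA4 thus went from the most abundant of the 6 transcripts at 24 h to the third at 72 h.

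The effective length, which RSEM averages over the transcripts in use and which counts where a fragment can begin, played no part in the choice. It hardly varied for PTX3 (1680 ± 7.22 nt without Dox and 1670 ± 4.94 nt at 24 h). For CPA4 it ranged from 1330 to 2520 nt among the No Dox libraries and was 1560 ± 26.5 nt at 24 h, so TPM values of CPA4 at low counts carry this spread. The 15 exact permutation tests against No Dox (two-sided, 3 against 3 libraries) could not reach a p under 0.05. That none passed therefore does not show that the lengths were unchanged. The smallest p that such a test can give, 0.1, was reached for AFAP1L2 at 48 h (3520 ± 69.4 nt without Dox and 3000 ± 434 nt in Dox) and for ANGPTL4 at 48 h (1550 ± 14.4 and 1590 ± 14.2 nt), each with an adjusted p of 0.75. DAW1 was not tested, since its No Dox libraries held fewer than 10 counts each.

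Over the 12 libraries, the 6 genes did not share 1 course. Pearson's r of log2 CPM, given as a description over libraries that share 4 group means, was 0.996 between PTX3 and DAW1, 0.98 between CPA4 and DAW1 and 0.96 between CPA4 and PTX3. AFAP1L2 and ANGPTL4 had r = 0.84. With CPA4, PTX3 and DAW1, AFAP1L2 had r = 0.78, 0.68 and 0.73, and ANGPTL4 had 0.55, 0.44 and 0.47. CSF3 had r = -0.53 with CPA4, -0.61 with PTX3 and -0.59 with DAW1. The 6 genes held a trio of close courses, a pair that returned to or below No Dox, and CSF3. The pair was not set apart cleanly, since AFAP1L2 was nearly as close to CPA4 as to ANGPTL4.

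The genes of most similar course were taken as the 3 with the highest r among 10757 protein-coding genes. They were DHX9, an RNA helicase, MSANTD3 and CAVIN1, a caveolar coat protein, for CPA4 (r = 0.995 each). For PTX3 they were PSMD11, a proteasome lid subunit (0.998), DAW1 (0.996) and CORO1C, an actin-binding coronin (0.995). DAW1 was most like PSMD11 (0.997), PTX3 (0.996) and CDC25A, the phosphatase that activates cyclin-dependent kinases (0.995). CSF3 was closest to CLMP, an adhesion molecule (0.992), MAPKBP1 (0.992) and TSPAN1, a tetraspanin (0.988). For AFAP1L2 they were TEX261 (0.961), REXO1 (0.96) and DUSP3, a phosphatase (0.952). For ANGPTL4 they included ESYT1 (0.988) and HSPA1A, a heat shock chaperone (0.987).

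**Figure D4:**
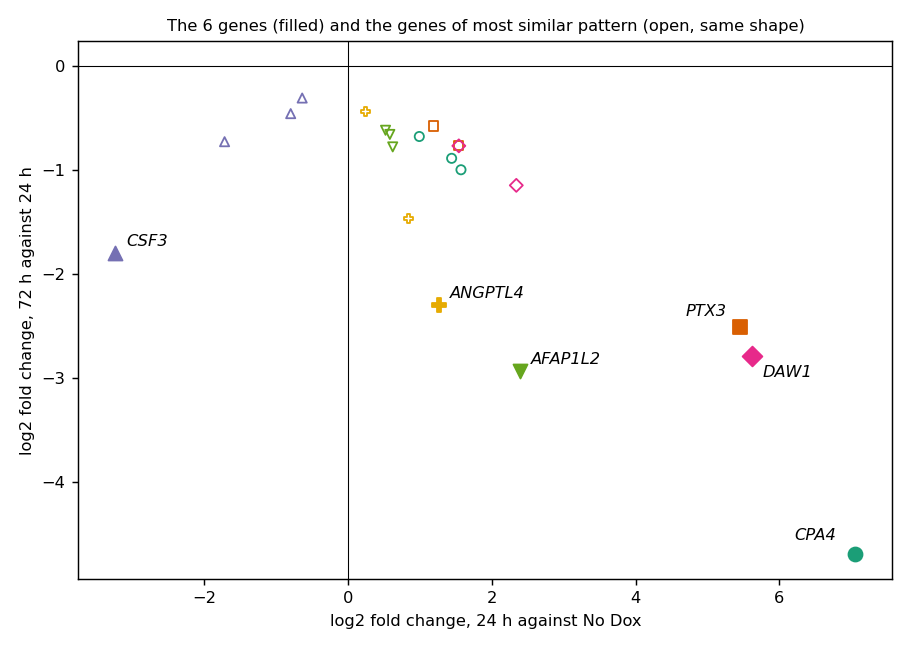
Log2 fold change at 24 h against No Dox (horizontal) and at 72 h against 24 h (vertical) for the 6 genes (filled) and the named genes of most similar course (open, same shape and colour). All open symbols lie nearer to 0 on both axes than the member they resemble.

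PTX3 and DAW1 were like each other in size as well as shape, while the other similar genes named here had smaller fold changes than the gene they resembled, both at 24 h against No Dox and at 72 h against 24 h. CAVIN1 was at 333 ± 10.1, 988 ± 70.3, 696 ± 23.4 and 494 ± 17.3 CPM over the 4 groups, a log2 fold change of -1 from 24 to 72 h where CPA4 had -4.7. PSMD11 was at 82.1 ± 0.735, 238 ± 5.78, 160 ± 1.92 and 139 ± 5.61 CPM, with -0.77 where PTX3 had -2.51 and DAW1 -2.79. With Spearman's rho in place of r, none of the 3 genes was retained for any of the 6.

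The families and pathways of the 6 genes were described next, leaving the 6 genes themselves out of the counts. Among 17 other M14 carboxypeptidases and their inhibitor latexin, 4 passed the filter on low counts. CPD, a membrane-bound carboxypeptidase of the secretory pathway, was called lower at 24 h (log2 fold change -1.69, from 262 ± 8.22 to 81.3 ± 9.6 CPM) and at 48 h (-1.15). CPM, which sits on the cell surface, was called lower at all 3 times, from 5.14 ± 0.95 CPM to 0.48 ± 0.222, 0.645 ± 0.535 and 0.594 ± 0.0797 CPM. No relative was called higher at any time, and CPA1, CPA3, CPA5 and CPA6 did not pass the filter.

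Of the 13 other pentraxins and PTX3 partners, 3 were tested. FGF2, whose activity PTX3 is known to block, was called higher at all 3 times, from 27.9 ± 2.32 CPM to 77.7 ± 5.49, 58.2 ± 4.13 and 56.5 ± 5.02 CPM. NPTXR, the neuronal pentraxin receptor, was called lower at 48 and 72 h at levels under 1 CPM. CRP, the classical short pentraxin, did not pass the filter, and neither did TNFAIP6 or the 3 C1q chains.

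Of the 13 other colony-stimulating and IL-6 family cytokines, 6 were tested, and none was called higher at 24 h. CSF1, the macrophage factor, was called lower at 72 h only (60.7 ± 0.474 CPM without Dox and 29.3 ± 1.47 CPM at 72 h, log2 fold change -1.05). IL11 was called lower at all 3 times, from 1.05 ± 0.266 CPM. LIF was called higher at 48 and 72 h, from 18.5 ± 1.17 to 49.7 ± 3.21 and 67.8 ± 1.25 CPM. CNTF (-1.98) was called lower at 72 h against No Dox. At 72 h against 24 h, 1 of the 6 tested was called higher and 2 lower, among them CNTF (log2 fold change -1.65). CSF2 and IL6 did not pass the filter.

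Among 13 receptor genes of these cytokines, 8 were tested and 3, 4 and 4 were called lower at 24, 48 and 72 h. CSF3R, the receptor of G-CSF, was at 1.06 ± 0.508 CPM without Dox. It had 0 counts at 24 and 48 h, which allows up to 0.0508 and 0.0511 CPM (3 counts over each group, counting error only), and was at 0.175 ± 0.12 CPM at 72 h. IL6R, the ligand-binding IL-6 receptor, was called lower at all 3 times, from 128 ± 0.987 CPM to 8.26 ± 0.141, 5.46 ± 0.448 and 2.92 ± 0.622 CPM. LIFR was called higher at 48 h (log2 fold change 1.94) and 72 h (2.55).

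Of 14 C/EBP and NF-kB factors and feedback genes, 13 were tested and none was called higher against No Dox at any time, while 8, 6 and 6 were called lower at 24, 48 and 72 h. The median log2 fold change of the list was -1.32, -0.88 and -0.94, against medians of -0.03, -0.01 and -0.02 over all genes. RELB, an NF-kB subunit, was at 33.4 ± 1.68, 13.5 ± 1.93, 5.2 ± 0.414 and 3.96 ± 0.226 CPM over the 4 groups. TNFAIP3, an inhibitor that NF-kB induces, was at 67.9 ± 1.76, 28.7 ± 1.81, 8.47 ± 0.597 and 7.34 ± 0.809 CPM. CEBPD was called lower at all 3 times but was called higher at 72 h than at 24 h (log2 fold change 1.57, from 35.8 ± 6.5 to 106 ± 17.5 CPM). From 24 to 48 h, 2 genes of the list were called lower, RELB and TNFAIP3, and 2 higher, among them CEBPD (median log2 fold change -0.08). CSF3 and PTX3 both fell between these times, PTX3 after a rise at 24 h. The part of these factors in the levels of CSF3 and PTX3 was not tested.

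**Figure D5:**
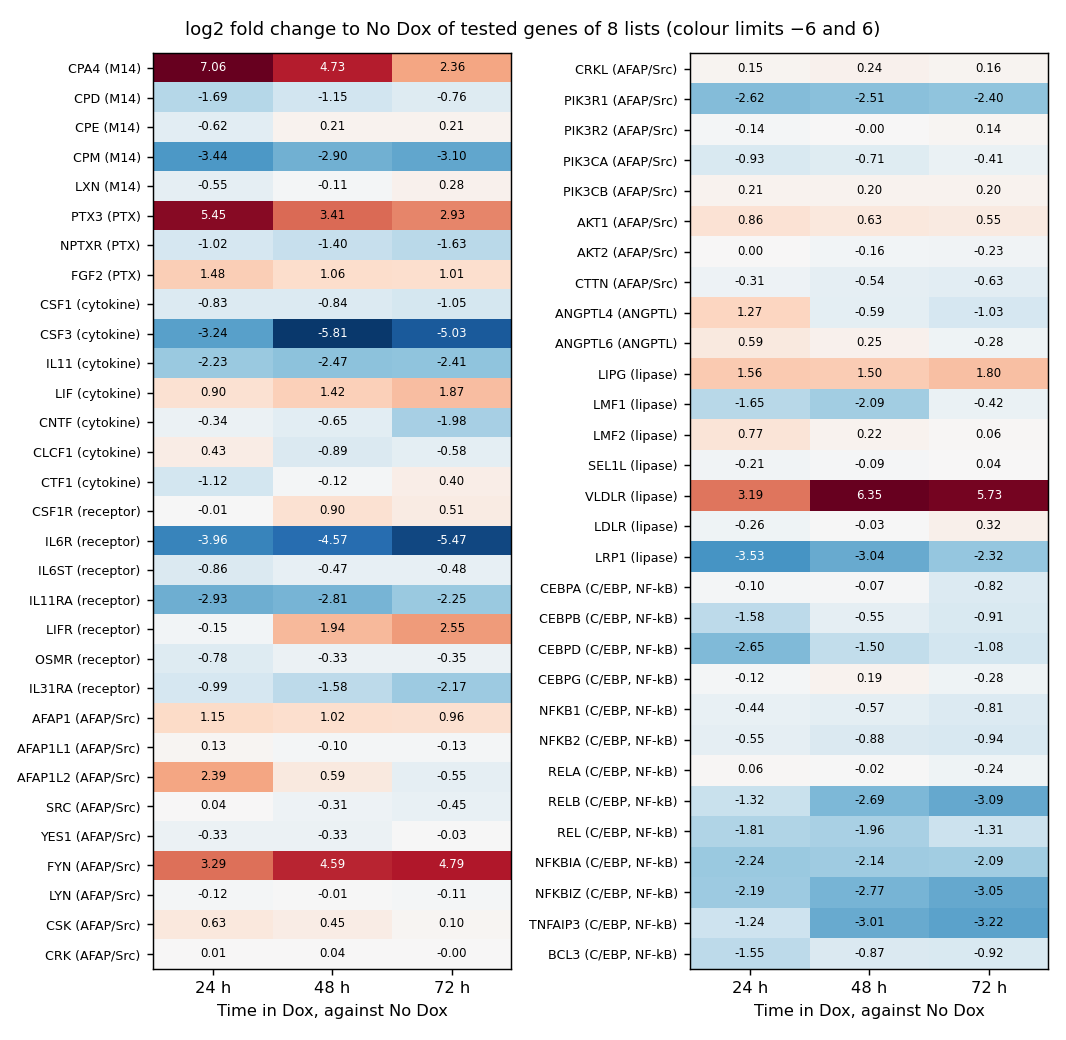
Log2 fold change to No Dox at 24, 48 and 72 h (columns) of tested genes of 8 lists (rows, list in brackets). CPA4, PTX3, CSF3, AFAP1L2 and ANGPTL4 are included, and DAW1 is not, since its list is not among those shown. Red is higher and blue lower than No Dox, with colours limited to -6 and 6. CSF3R is left out because it had 0 counts in 2 groups. CPA4, PTX3 and AFAP1L2 have their strongest red at 24 h, while VLDLR and FYN have theirs later.

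ANGPTL4 stood nearly alone in its family, since ANGPTL6 was the only tested gene among 7 other angiopoietin-like genes and was not called at any time (0.365 CPM without Dox). Of 12 genes of the lipoprotein lipase pathway, 7 were tested. LPL itself, the enzyme that ANGPTL4 inhibits, and GPIHBP1, which anchors it, did not pass the filter. LIPG, endothelial lipase, was called higher at all 3 times, from 10.3 ± 1.71 CPM to 30.6 ± 2.45, 29.3 ± 1.31 and 36 ± 0.417 CPM. VLDLR, a lipoprotein receptor, was called higher at all 3 times (log2 fold changes 3.19, 6.35 and 5.73), while LRP1, another receptor of the same family, was called lower (-3.53, -3.04 and -2.32). None of the 7 was called lower at 72 h than at 24 h, and VLDLR, LRP1 and LMF1, a lipase maturation factor, were called higher.

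Lists of genes that share known inducers with ANGPTL4 held calls in both directions at 24 h. Of 18 PPAR factors and target genes, 13 were tested, with 3 higher and 3 lower at 24 h and at 48 h, and 3 higher and 2 lower at 72 h. PPARD, a receptor that ANGPTL4 is known to respond to, was at 19 ± 0.759, 61.8 ± 4.73, 45.3 ± 3.26 and 37.8 ± 1.71 CPM. PDK4, another classical PPAR target, was called lower at all 3 times, from 99.1 ± 3.8 CPM to 1.74 ± 0.105 CPM at 24 h. Of 14 hypoxia-induced genes, all were tested and 3 were called higher and 4 lower at 24 h, with 2 higher and 2 lower at 48 h and 2 higher and 0 lower at 72 h. ADM, the vasodilator adrenomedullin, was the one of these called lower at 72 h than at 24 h, and was at 9.56 ± 1.94, 371 ± 2.07, 203 ± 8.53 and 135 ± 2.16 CPM. LOX and NDRG1 were lowest at 24 h (26.5 ± 0.687 and 99.2 ± 2.22 CPM). The part of PPAR or hypoxia signalling in the level of ANGPTL4 was not tested.

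Among 13 genes of the glucocorticoid receptor and its targets, 8, 6 and 4 were called lower at 24, 48 and 72 h and none was called higher. TSC22D3, the classical glucocorticoid-induced leucine zipper, was at 304 ± 4.14, 5.49 ± 0.224, 33.5 ± 0.567 and 65.1 ± 8.03 CPM. ZBTB16 was at 78.4 ± 0.0588, 3.68 ± 0.371, 12.9 ± 0.991 and 27.9 ± 2.47 CPM. Of the list, 5 genes were called higher at 72 h than at 24 h and none lower, a median log2 fold change of 0.52 against 0.01 over all genes. TSC22D3 and ZBTB16 had their lowest mean at 24 h, whereas PER1 was lowest at 72 h and SGK1 was lowest without Dox. Hydrocortisone was in the medium of all groups.

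Of the 16 other genes of the AFAP family and of Src or PI3K partners, all were tested. AFAP1, the founding family member, was called higher at 24 h (log2 fold change 1.15) and 48 h (1.02) and was at 75.4 ± 0.167, 167 ± 11.6, 153 ± 13.4 and 147 ± 7.55 CPM. AFAP1L1 was not called at any time (35.5 ± 1.44 CPM without Dox and 39 ± 1.21 CPM at 24 h). The 3 AFAP genes had different courses. AFAP1L2 was picked for its drop from 24 to 72 h, and neither AFAP1 (log2 fold change -0.19) nor AFAP1L1 (-0.26) was called lower in that comparison. FYN, a Src family kinase, was called higher at all 3 times, from 1.96 ± 0.0666 CPM to 19.3 ± 0.966, 47.6 ± 6.25 and 54.8 ± 0.8 CPM. PIK3R1, which encodes p85 alpha, was called lower at all 3 times, from 210 ± 9.86 CPM to 34.3 ± 1.65, 37.1 ± 4.32 and 39.9 ± 0.542 CPM.

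Of the 27 other genes of axonemal dynein arms and their assembly, 17 were tested, and 2 were called higher and 3 lower at 24 h. SPAG1, a cytoplasmic dynein assembly factor, was called higher at all 3 times and lower at 72 h than at 24 h, and was at 12 ± 1.41, 56.8 ± 1.99, 34.7 ± 1.67 and 27.9 ± 2.06 CPM. MCIDAS, a regulator of multiciliated cells, was called higher at 24 h (log2 fold change 1.24, from 2.25 ± 0.197 to 5.32 ± 0.289 CPM). At 48 and 72 h 1 gene was called higher and 2 lower. FOXJ1, the master factor of motile cilia, had 0 counts in all 12 libraries, which allows up to 0.0126 CPM, as did the dynein intermediate chains DNAI1 and DNAI2. DAW1 was thus high at 24 h in cells in which those defining genes of motile cilia had no counts.

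Of the 22 YAP and TAZ target genes, all tested, 12, 11 and 12 were called higher at 24, 48 and 72 h against 1, 1 and 0 lower. The genes called were not the same at each time, and NT5E and GADD45A were called higher at 24 h only. None was called lower at 72 h than at 24 h, and ANKRD1 was called higher (99 ± 3.47 CPM at 24 h and 400 ± 22.2 CPM at 72 h). CCN1 was at 36.1 ± 5.82, 1290 ± 60, 1200 ± 38.5 and 1310 ± 40.7 CPM. This list was put together with earlier results of these data known. F3, tissue factor, was at 803 ± 21.2 CPM at 24 h, 377 ± 4.11 at 48 h and 404 ± 22.1 at 72 h. It had the largest drop of the list from 24 to 72 h, a log2 fold change of -0.99 that was just under the threshold. At 48 h F3 was called lower than at 24 h (-1.09).

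Among 20 AP-1 subunits and ERK feedback genes, 2, 2 and 3 were called higher and 6, 6 and 6 lower at 24, 48 and 72 h. FOSL1, which encodes FRA-1, was at 27 ± 0.897, 116 ± 10.3, 40.4 ± 2.33 and 43.5 ± 5.05 CPM, and JUN was at 38.8 ± 2.95, 95.3 ± 6.27, 57.4 ± 5.11 and 40.7 ± 1.16 CPM. Both were called higher at 24 h and lower at 72 h than at 24 h (log2 fold changes -1.42 and -1.23). They were not called against No Dox at 48 or 72 h. FOS was called lower at all 3 times and was at 95.6 ± 2.15, 1.32 ± 0.264, 3.94 ± 0.962 and 7.34 ± 0.257 CPM. ATF3 was called higher at 48 and 72 h and was at 1.3 ± 0.107, 1.98 ± 0.277, 6.06 ± 0.599 and 4.51 ± 0.164 CPM, so the AP-1 subunits did not share 1 course.

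Neighbouring genes were chosen after the values of the 6 genes had been seen. MED24, a Mediator subunit gene that lies 1.28 kb beyond CSF3 on the other strand, was called lower at all 3 times (180 ± 13.9, 89.1 ± 1.34, 68.2 ± 2 and 66.6 ± 1.46 CPM), while PSMD3 on the other side was called higher at 24 h (109 ± 2.07 and 253 ± 6.35 CPM). CCL20, a chemokine gene 53.5 kb before DAW1, was called lower at all 3 times (29.4 ± 2.88, 11.2 ± 1.9, 5.63 ± 0.686 and 5.77 ± 0.327 CPM), so DAW1 and its neighbour differed in direction. VEPH1 overlaps PTX3 on the opposite strand and was at 0.923 ± 0.123, 4.42 ± 0.643, 3.43 ± 0.136 and 2.8 ± 0.641 CPM, called higher at all 3 times. The strand setting of the authors' counting is not given in the sources used here, and whether whole reads of PTX3 were counted for VEPH1, or the reverse, was not tested. RSEM divided no PTX3 read with another gene. The VEPH1 level at 24 h compares with 109 ± 6.04 CPM for PTX3. CEP41, 69.6 kb beyond CPA4, was called higher at 24 and 48 h, as CPA4 was higher there (log2 fold changes 1.18 and 1.13 for CEP41), and TMEM209 on the other side was not called. PID1, 926 kb beyond DAW1, was called lower at all 3 times (-2.44, -2.17 and -2.77). CCNL1 and SHOX2 beside PTX3 were not called. The neighbours of ANGPTL4 (RPS28 and RAB11B) and AFAP1L2 (CCDC186 and ABLIM1) were not called at any time.

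Markers of the labelled cell type were present, with all 10 mammary epithelial markers tested and their summed level between 5410 and 9950 CPM in every library. Of these markers, 2, 2 and 2 were called higher and 3, 4 and 5 lower at 24, 48 and 72 h. The leukocyte marker sum was 26.1 to 31.4 CPM without Dox and 5.48 to 8.76 CPM in Dox, with 2 of 11 markers tested and CD3E, CD3D, MS4A1 and FCGR3B at 0 counts. The endothelial sum was 36.9 to 38.5 CPM without Dox and 2.18 to 13.4 CPM in Dox, with 3 of 7 tested. The fibroblast sum was 54.5 to 56.4 CPM without Dox and 1.91 to 4.9 CPM in Dox, with 3 of 8 tested and COL1A2, COL3A1, PDGFRA and THY1 at 0 counts. Without Dox each of these 3 sums came almost wholly from the few markers that passed the filter, while the other markers of the list were near 0. The sums therefore do not show that such cells were present. In each of these 3 lists the tested markers that were called against No Dox were called lower. The part of these lists in the level of CSF3, which was also highest without Dox, was not tested. In bulk RNA, fewer cells with a transcript and less of it per cell cannot be told apart.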

How the data were processed

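Poly(A)-selected, dUTP-based paired-end libraries were aligned by the authors to GRCh38 with STAR and counted with RSEM on GENCODE version 22. The strand setting and tool versions were not given in the sources used here. The deposited gene tables hold RSEM expected counts, which divide a read between genes it fits and need not be whole, TPM, FPKM (not used here) and effective length. The authors' deposited TPM were used for levels between genes, and the SD of each count from shared reads only to look for such reads.

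Expected counts were rounded. Names and coordinates came from GENCODE version 44 for 56707 of 60483 rows. Genes were kept with filterByExpr (14822 genes), scaled with TMM and fitted over all 12 libraries with a mean per group by edgeR's quasi-likelihood test (R 4.3.3, edgeR 4.0.16, limma 3.58.1), with Benjamini-Hochberg adjustment. A call needed a log2 fold change of 1 or more in either direction and an adjusted p under 0.05. SEs are those implied by the F statistic. The biological coefficient of variation was 5.71%. The procedure was tested on simulated data. Similar courses were ranked on log2 CPM (prior count 2). Effective lengths were compared by exact permutation, two-sided.

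The 6 genes, the 18 gene lists, the tests and the alternatives were chosen with earlier results of these data known. Named genes are the 6 genes, WWTR1, up to 3 called genes per list and comparison, near relatives of the 6 genes, and the 3 most similar genes for each. Further list members, among them ADM, LOX, NDRG1, F3, CCN1, JUN, ATF3, NT5E, GADD45A, PER1, SGK1 and PPARD, and the neighbouring genes were chosen after their values were seen. Alternatives were DESeq2 1.42.0, other scaling factors, effective lengths as offsets, other filters, fits of 2 groups, leaving out each library and a replicate block. Replicate numbers did not pair the libraries. Some list members and similar genes are counted but not reported here by name.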

Additional observations from a re-analysis of the deposited data

How the results depend on the processing

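The 4 calls among the 6 genes at 48 h against No Dox (3 higher, 1 lower) held under all 20 alternatives to the fit. AFAP1L2 was not called in any of them, with log2 fold changes of 0.2983 to 0.8112 and adjusted p of 0.0338 to 0.381 (0.2983 to 0.7699 with 1 library left out). For 48 h against No Dox, an alternative fit was counted as unchanged if the sign and the call held. Other values were counted so if they differed by less than the replicate spread. No fold change that was at least 2-fold in the main fit changed sign. Of 756 fold changes of the 6 genes under alternatives, 752 were unchanged by these rules and 4 moved. Many of the 756 came from fits without a library of a group that was not compared, which could hardly move the value. The share unchanged thus overstates how firm the values are. With effective lengths as offsets these were DAW1 at 24 h (5.207) and 72 h (2.53) against No Dox and CPA4 at 72 h against 24 h (-4.886), and with TPM it was DAW1 at 24 h (5.239). All 280 counts of calls stayed within 1.5 times.

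Replicate numbers did not pair the libraries (18 same-number correlations of -0.205 to 0.32, of which 3 exceeded 0.1). With a replicate block 1572 genes were called higher and 2140 lower at 48 h, and AFAP1L2 had 0.5703 (adjusted p = 0.0843). Depth limits DAW1 and AFAP1L2 most, which had 26 and 83 counts over the No Dox group.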
